A study of Mus musculus with 21 samples.

Results

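Pericyte marker genes were followed in mesenchymal cells of leukemic mouse bone marrow as 9 genes: Pdgfrb, Ednra, Rgs5, Rgs4, Mcam, Cspg4, Aoc3, Abcc9 and Des. They were taken by name, as markers of pericytes and other mural cells that are not part of the contractile apparatus, and are 9 of the 26852 genes in the deposited table. All 9 were in the table and passed the filter on low values, which left 12976 genes to test.

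The study asked how human acute myeloid leukemia (AML) alters bone marrow stroma as the disease progresses. Nes-low mesenchymal cells, sorted by a weak green fluorescent signal driven by a Nestin transgene, were taken from Nestin-GFP reporter mice on the immunodeficient NSG background (NOD-SCID IL2Rgnull) after human and mouse blood cells had been depleted on magnetic beads and the rest stained for human and mouse CD45, Ter119 and CD31. Mice were unconditioned, and hosts were 8 to 12 weeks old at transplant. The ctrl group of 3 libraries came from mice with no transplant. The leukemic groups came from mice that carried HL60 or ML1, established human AML cell lines with a lentivirus from which a mouse PGK promoter drives sLP-mCherry, a secreted lipid-permeable red protein that nearby cells take up. Early ch+ cells (6 libraries, 3 for each line) carried the cherry label at an early time point of the leukemia, and early ch- cells (6 libraries, 3 for each line) were unlabelled cells of the same marrow. Late cells (6 libraries, 3 for each line) came from a late time point. The labels do not tell whether a library holds 1 mouse or a pool, so every spread given here is a spread between libraries, and they do not say which early ch+ and early ch- libraries share a marrow. The treatment label of the 3 ML1 late libraries reads unengrafted, whereas their titles and time points read late. They were analysed as late, and the counts were also taken without them.

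Pericytes are cells that wrap capillaries and small venules, and together with vascular smooth muscle cells they make up the mural cells. Endothelial cells recruit them with platelet-derived growth factor B, which binds Pdgfrb on the pericyte surface, and pericytes in turn help to set the tone and stability of the vessel. In bone marrow several of their markers, Pdgfrb among them, are shared with the perivascular stromal cells that secrete Cxcl12 and Kit ligand and maintain hematopoietic stem cells.

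Values are the authors' regularized log2 expression values, in which a difference of 1 is a 2-fold change, and since they are not counts, they do not show the depth of each library. Across the 12976 tested genes, which are not independent replicates, Pearson's r for pairs of libraries within a group ran from 0.935 to 0.976. Nes, the gene of the sorted reporter, read 7.14 to 7.61 in ctrl, and its medians were 7.41 in early ch-, 7.30 in early ch+ and 7.36 in late cells. Markers of marrow stroma were high, since the ctrl values ran from 12.24 to 13.06 for the leptin receptor Lepr, from 14.89 to 15.57 for the chemokine Cxcl12, from 9.88 to 10.27 for Kitl and from 11.59 to 11.91 for Pdgfra. Pecam1, which encodes the endothelial antigen CD31, lay between 4.53 and 6.21 in all libraries. An extraction label speaks of CD31-labelled endothelial cells, whereas the source labels name Nes-low mesenchymal cells, and the levels of Lepr, Cxcl12 and Pecam1 are those of the source labels. Ptprc, which encodes the blood cell antigen CD45, read 2.49 to 2.61 in ctrl and 2.36 to 2.54 in late cells, but 2.67 to 5.92 in early ch- and 3.81 to 5.58 in early ch+ cells.

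Levels of different genes were compared per kilobase of exon (log2 value minus the log2 of the exon length), as mean ± SD. In ctrl cells Rgs5 was the highest of the 9 genes at 10.79 ± 0.23 (n = 3), in the 99.3 percentile of all tested genes, and its range lay above that of every other member. It was followed by Pdgfrb at 8.55 ± 0.10, Rgs4 at 8.21 ± 0.44 and Aoc3 at 8.09 ± 0.70, then by Mcam at 7.41 ± 0.31 and Ednra at 7.23 ± 0.57. Abcc9 at 6.74 ± 0.22, Cspg4 at 6.73 ± 0.17 and Des at 6.49 ± 0.82 were the lowest, and Des still lay in the 81.8 percentile. From Pdgfrb downward each gene's range overlapped that of the next, and of the genes further apart only some were separated, such as Pdgfrb from Mcam and all genes after it, and Rgs4 from Mcam, Abcc9, Cspg4 and Des. In late cells Pdgfrb came first at 10.55 ± 0.35 and overlapped Rgs5 at 10.13 ± 0.16 (n = 6), while Cspg4 came last at 4.76 ± 0.62, with a range below that of its neighbour Des at 6.44 ± 0.40. In early ch+ cells Mcam at 5.42 ± 0.82 and Aoc3 at 5.76 ± 0.40 were the lowest and overlapped each other, whereas in early ch- cells the order was Rgs5, Pdgfrb, Rgs4, Aoc3, Ednra, Mcam, Abcc9, Cspg4 and Des, with each range from Rgs4 downward overlapping the next.

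**Figure D1:**
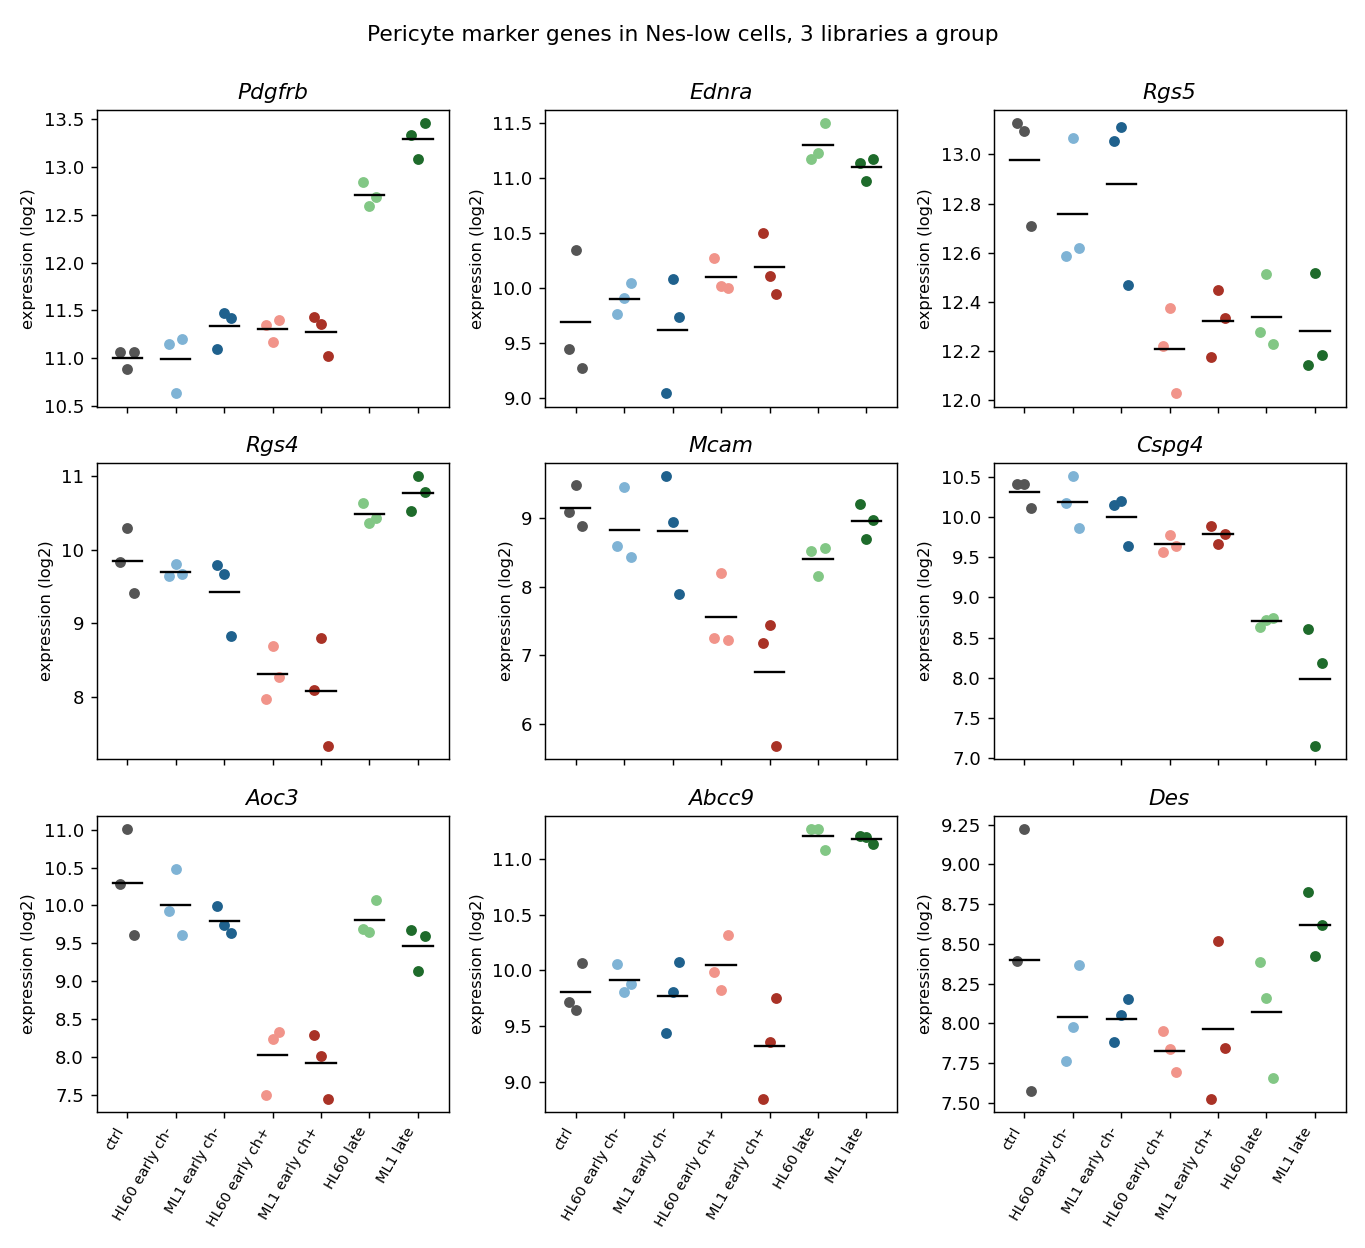
Level of each of the 9 genes in every library, as the deposited log2 value on the vertical axis, with the libraries of ctrl, early ch-, early ch+ and late cells apart and the lines marked. Aoc3 in early ch+ cells runs from 7.45 to 8.33, below every other library, and Pdgfrb in late cells runs from 12.59 to 13.46, above every other library.

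In early ch+ cells Aoc3, Mcam, Rgs4 and Rgs5 fell against ctrl, 4 of the 9 genes, where 2.75% of all tested genes were called lower and 3.41% higher at an adjusted p under 0.1, and 0 of the 9 were higher (limma; 1 at an unadjusted p under 0.05). The same 4 were lower in early ch+ than in early ch- cells, where 2.68% of all genes were called lower and 3.58% higher, and again 0 were higher (limma; 1 at an unadjusted p under 0.05). In early ch- cells 0 of the 9 differed from ctrl in either direction (limma; 0 at an unadjusted p under 0.05), beside 1.13% of all genes called higher and 0.786% lower. In late cells 4 genes rose against ctrl (Pdgfrb, Ednra, Abcc9 and Rgs4), beside 10.2% of all genes, and 3 were lower (Cspg4, Rgs5 and Aoc3), beside 11.4%, with Rgs5 and Aoc3 turning to 0.03 each when libraries were rescaled to their mean total. Between late and early ch+ cells 6 genes were higher in late cells, beside 8.79% of all genes, and 1, Cspg4, was lower, beside 10.9%. The median log2 difference of the 9 genes was -0.59 in early ch+ cells, -0.22 in early ch- cells and -0.05 in late cells against ctrl, beside 0.01, 0.01 and 0.02 over all tested genes, and the late median became 0.64 after rescaling, beside 0.71. Comparisons with ctrl share its 3 libraries, and those with early ch+ share its 6, so these counts are not independent of each other. The 9 genes were chosen with earlier results of these data known, so the shares of all genes are given as a description. In bulk RNA, fewer cells of a type and less RNA of a gene in each cell cannot be told apart.

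Taken apart by line, HL60 late cells had 5 of the 9 genes called (3 higher and 2 lower), beside 13.7% of all genes, and ML1 late cells had 7 (4 higher and 3 lower), beside 22.0%. Early ch+ cells had 4 called in HL60 and 4 in ML1 against ctrl, all lower, beside 5.33% and 6.69% of all genes called in either direction. Against early ch- cells 4 were called in each line, all lower, beside 3.92% and 4.25% of all genes called in either direction. The HL60 count against early ch- dropped to 2 without early ch+ replicate 523, early ch+ replicate 525 or early ch- replicate 528. Early ch- cells had 0 called in either line (limma; 0 in HL60 and 1 in ML1 at an unadjusted p under 0.05), beside 1.57% and 2.34% of all genes. When the lines were tested against each other, 1 of the 9 genes, Pdgfrb, differed in late cells, beside 4.09% of all genes. That count was 0 without ML1 late replicate 583 or HL60 late replicate 398, and 2 without ML1 late replicate 581. No member differed between the lines in early ch+ cells (0 of 9 by limma, 2 at an unadjusted p under 0.05), beside 0.0154% of all genes, or in early ch- cells (0 of 9, 1 at an unadjusted p under 0.05), beside 0.0539%. The difference between early ch+ and early ch- was called different between the lines for 0 of 9 (limma; 1 at an unadjusted p under 0.05), beside 0.00771% of all genes. Without the 3 ML1 late libraries, 3 genes were higher and 2 lower in late cells than in ctrl, beside 5.76% and 6.67% of all genes, since Rgs4 and Aoc3 lost their calls. In that fit 5 were lower in early ch+ cells than in ctrl, beside 3.34% of all genes, as Cspg4 gained a call.

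**Figure D2:**
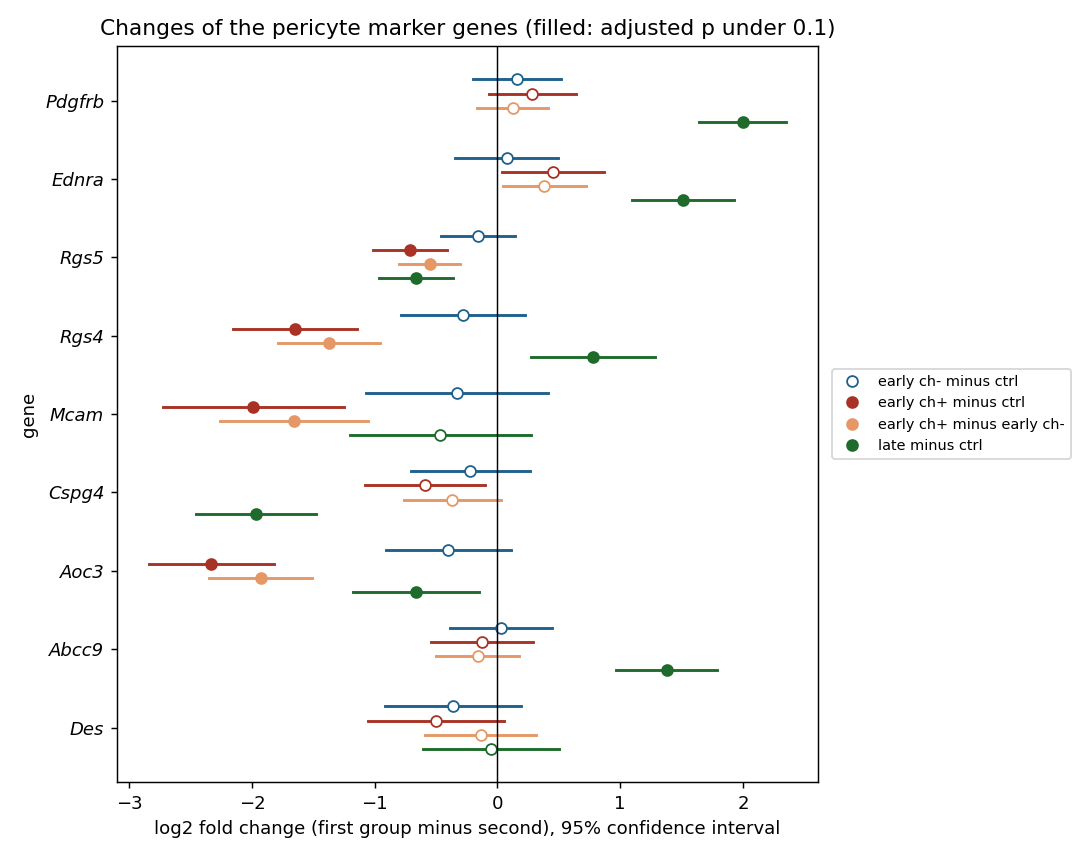
Log2 difference of each of the 9 genes with its 95% confidence interval in the comparisons of the groups, on the deposited scale. Mcam, Aoc3 and Rgs4 lie at -1.37 or lower in early ch+ cells against both ctrl and early ch- cells, and Rgs4 lies at 0.78 in late cells against ctrl.

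Pdgfrb encodes the receptor tyrosine kinase for PDGF-B and PDGF-D and lies on the forward strand of chromosome 18 (ENSMUSG00000024620, GRCm38, chr18:61045150-61085061). It read 11.07, 10.88 and 11.06 in ctrl, 12.84, 12.59 and 12.69 in HL60 late and 13.34, 13.08 and 13.46 in ML1 late cells. All late libraries lay above all others, and every ML1 late library above every HL60 late library. The lowest, median and highest values were 10.63, 11.18 and 11.47 in early ch- and 11.02, 11.35 and 11.43 in early ch+ cells, and both groups overlapped ctrl. By line, HL60 early ch+ (11.17 to 11.39) and ML1 early ch- (11.09 to 11.47) lay above every ctrl library. Neither was called against ctrl, at 0.30 (limma, adjusted p = 0.341) and 0.33 (adjusted p = 0.36). HL60 early ch- and ML1 early ch+ overlapped ctrl. Pdgfrb rose in late cells by 2.00 ± 0.17 (log2 difference ± SE, 3.99-fold; limma, adjusted p = 3.2e-09), by 1.70 ± 0.15 in HL60 (adjusted p = 3.05e-09) and by 2.29 ± 0.15 in ML1 (adjusted p = 7.4e-13). Against early ch+ cells the rise was 1.71 ± 0.14 (limma, adjusted p = 3.53e-10). The early differences did not pass the test, at 0.28 (95% CI -0.07 to 0.64, adjusted p = 0.438) for early ch+ and 0.16 (CI -0.20 to 0.51, adjusted p = 0.776) for early ch- against ctrl. HL60 late minus ML1 late was -0.58 (CI -0.90 to -0.27; limma, adjusted p = 0.0239), and the call was lost without ML1 late replicate 583 (-0.50) or HL60 late replicate 398 (-0.53), without the filter and without the trend, with an adjusted p between 0.000734 and 0.197 over all alternatives. Several summed marker levels described below also parted the lines in late cells without overlap. Those of osteoblast (18.95, 19.01 and 18.62 in HL60, 17.04, 16.36 and 16.51 in ML1), chondrocyte (15.04, 15.06 and 14.54 in HL60, 12.97, 12.72 and 12.51 in ML1), PDGF, endothelial and Schwann cell genes were higher in HL60, and those of filament, endothelin and channel genes were higher in ML1, and their part in the difference was not tested.

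Ednra encodes the endothelin receptor type A, the G protein-coupled receptor through which endothelin constricts mural cells, and lies on the reverse strand (ENSMUSG00000031616, chr8:77663031-77724464). It read 9.44, 10.34 and 9.28 in ctrl, 11.18, 11.23 and 11.50 in HL60 late and 11.14, 10.98 and 11.18 in ML1 late cells. Every late library exceeded every other library, and the lines met at 11.18, the lowest HL60 and the highest ML1 value, without overlap. Early ch- values ran from 9.04 to 10.08 with a median of 9.83, and early ch+ values began at 9.94 with a median of 10.06, so both overlapped ctrl, whose replicate 374 stood at 10.34. Ednra rose in late cells by 1.51 ± 0.20 (2.85-fold; limma, adjusted p = 2.81e-06), by 1.61 ± 0.23 in HL60 and by 1.41 ± 0.23 in ML1, and by 1.06 ± 0.17 against early ch+ cells (adjusted p = 1.94e-05). The difference between early ch+ and ctrl was 0.46 (CI 0.04 to 0.87; limma, adjusted p = 0.246), which was 0.78 and called without ctrl replicate 374 but 0.25 without ctrl replicate 375, with an adjusted p between 0.035 and 0.67 over all alternatives. Early ch- cells were at 0.07 against ctrl (CI -0.34 to 0.49, adjusted p = 0.927).

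Of the tested PDGF genes 0, and of the tested endothelin genes 1, were called higher in late cells than in ctrl. Of all tested genes 10.2% were called higher and 11.4% lower in that comparison. Of the PDGF ligands and the other PDGF receptor, 4 of 5 were tested, and Pdgfb, the ligand that endothelial cells make, was below the filter with a mean of 2.54. All 4 were lower in late cells than in ctrl, with Pdgfc at -1.44 ± 0.25 (limma, adjusted p = 9.16e-05), Pdgfd at -0.92 ± 0.24 (adjusted p = 0.00598), Pdgfa at -0.84 ± 0.23 (adjusted p = 0.0117) and Pdgfra at -0.38 ± 0.13 (adjusted p = 0.0541), but after rescaling 1 was higher and 1 lower. In early ch+ cells 0 of the 4 were called in either direction against ctrl (limma; 1 lower at an unadjusted p under 0.05). The most abundant was Pdgfra, and their summed level was 12.22, 12.32 and 12.36 in ctrl and ran from 12.09 to 12.41 in early ch+ and from 11.43 to 12.04 in late cells. Of the endothelin genes 3 of 6 were tested, since the ligands Edn1, Edn2 and Edn3 were below the filter, with means of 2.39, -1.86 and 2.33. Ece1, the enzyme that releases active endothelin and the most abundant of the list, rose by 0.75 ± 0.15 in late cells (limma, adjusted p = 0.00034) and by 0.43 ± 0.12 in early ch+ over early ch- cells (adjusted p = 0.0301), whereas the other receptor, Ednrb, was at -0.75 in late cells (adjusted p = 0.122).

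Rgs5 and Rgs4 encode regulators of G protein signalling, proteins that speed the GTPase of Gq and Gi alpha subunits and so shorten signals from receptors such as Ednra. They are paralogs and neighbouring protein-coding genes, 45.7 kb apart on chromosome 1, with Rgs5 on the forward strand (ENSMUSG00000026678, chr1:169655501-169695813) and Rgs4 on the reverse strand (ENSMUSG00000038530, chr1:169741477-169747642), so that their ends face each other. Rgs5 read 13.13, 13.10 and 12.71 in ctrl, 12.22, 12.38 and 12.03 in HL60 early ch+, 12.18, 12.45 and 12.34 in ML1 early ch+, 12.28, 12.51 and 12.23 in HL60 late and 12.14, 12.52 and 12.19 in ML1 late cells. Every early ch+ and late library lay below every ctrl library, and the lines overlapped. Early ch- values ran from 12.47 in ML1 replicate 546 to 13.11, with a median of 12.84, and so overlapped ctrl but not early ch+, whose highest value was 12.45. Rgs5 fell by 0.71 in early ch+ cells against ctrl (SE 0.15, 1.64-fold lower; limma, adjusted p = 0.00334) and by 0.55 against early ch- cells (SE 0.12, adjusted p = 0.00419). The late value was -0.66 ± 0.15 against ctrl (1.59-fold lower; limma, adjusted p = 0.00169), with -0.64 in HL60 and -0.69 in ML1, and 0.03 after rescaling, and the adjusted p ran from 7.68e-05 to 0.882 over all alternatives. Late minus early ch+ was 0.05 and not called (CI -0.20 to 0.30; limma, adjusted p = 0.87), or 0.66 and called higher in late cells after rescaling. In that rescaled comparison 65.1% of all tested genes were called higher, and the median over all of them was 0.63. Early ch- cells stood at -0.16 against ctrl (CI -0.46 to 0.15; limma, adjusted p = 0.738). Within the lines the difference between early ch+ and early ch- was -0.55 in HL60 (limma, adjusted p = 0.0681) and -0.56 in ML1 (adjusted p = 0.0575). The HL60 call was lost without early ch+ replicates 523 (-0.55) or 525 (-0.46) or early ch- replicate 528 (-0.39), and the ML1 call without early ch+ replicates 538 (-0.49) or 541 (-0.57) or early ch- replicates 543 (-0.47) or 544 (-0.44), and each was also lost without the filter, after rescaling and without the trend, with adjusted p between 0.00391 and 0.392 in HL60 and between 0.00619 and 0.268 in ML1 over all alternatives.

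Rgs4 moved in opposite directions early and late. It read 9.83, 10.29 and 9.41 in ctrl, 7.97, 8.70 and 8.28 in HL60 early ch+, 8.09, 8.80 and 7.34 in ML1 early ch+, 10.63, 10.37 and 10.43 in HL60 late and 10.52, 11.00 and 10.79 in ML1 late cells. Every early ch+ library lay below, and every late library above, all ctrl libraries. Early ch- values ran from 8.83, in ML1 replicate 546, to 9.80 with a median of 9.67, above every early ch+ library. Rgs4 fell by 1.65 in early ch+ cells against ctrl (SE 0.25, 3.14-fold lower; limma, adjusted p = 7.48e-05) and by 1.37 against early ch- cells (SE 0.20, adjusted p = 2.66e-05), with -1.39 in HL60 and -1.35 in ML1 for the latter. It rose by 0.78 ± 0.25 in late cells against ctrl (1.71-fold; limma, adjusted p = 0.0288) and by 2.43 ± 0.20 against early ch+ cells (5.38-fold, adjusted p = 3.84e-10), the largest rise among the 9 genes in that comparison. The late call against ctrl was lost without ctrl replicate 375 (0.56), without the 3 ML1 late libraries (0.63) and, at the same value, without the filter, and its adjusted p ran from 6.39e-05 to 0.218 over all alternatives. By line the late difference was 0.63 in HL60 (limma, adjusted p = 0.165) and 0.92 in ML1 (adjusted p = 0.0173, lost without ctrl replicate 375 at 0.71 and without the filter). HL60 late minus ML1 late was -0.29 (limma, adjusted p = 0.876), which was not called. Early ch- cells stood at -0.28 against ctrl (CI -0.79 to 0.23, adjusted p = 0.717).

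Because this neighbouring pair diverged in late cells while both were lower in early ch+ cells, their upstream sequences were compared, as RefSeq gives them for GRCm38.p6. Of the 9 genes 7 had an entry, and Pdgfrb and Aoc3 had none. The windows below are the 250 bases before each start, chr1:169655251-169655500 for Rgs5 and chr1:169747643-169747892 on the reverse strand for Rgs4, printed 5′ to 3′ along the gene's strand, with CCAAT on either strand (ATTGG where it is on the other) and TATAAA in capitals.
Rgs5: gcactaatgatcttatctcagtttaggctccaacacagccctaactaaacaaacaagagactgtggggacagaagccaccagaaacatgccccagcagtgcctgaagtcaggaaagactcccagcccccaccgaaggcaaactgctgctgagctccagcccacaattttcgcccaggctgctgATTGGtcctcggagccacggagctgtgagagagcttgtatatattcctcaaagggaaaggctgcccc
Rgs4: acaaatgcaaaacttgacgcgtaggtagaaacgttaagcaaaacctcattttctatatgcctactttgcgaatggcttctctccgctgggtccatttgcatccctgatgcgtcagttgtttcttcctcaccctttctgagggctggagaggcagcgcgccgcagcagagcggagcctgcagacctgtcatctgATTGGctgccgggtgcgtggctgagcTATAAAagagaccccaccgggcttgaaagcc
Both windows held CCAAT, which 33.8% of 32817 windows of this length held, and they were the 2 of 7 member windows with it. TATAAA was in the Rgs4 window, 1 of 7, and in 12.4% of all windows. Only these exact letters were counted, and the Rgs5 window holds a similar uncounted run, tatatatt, near its end. CANNTG was in 5 of 7 member windows and 66.2% of all windows, while GTGGGAA, the core bound by RBPJ in Notch signalling, and the CArG box were in 0 of 7, and in 5.42% and 1.47% of all windows. A match is a description of the letters and shows no binding.

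Among the other R4 family members of these regulators 3 of 8 were tested, with Rgs1, Rgs8, Rgs13 and Rgs18 below the filter and Rgs21 absent from the table. Their summed level was 10.16, 10.28 and 10.30 in ctrl, and its ranges were 10.64 to 11.08 in early ch-, 10.57 to 10.94 in early ch+ and 10.56 to 11.08 in late cells, above ctrl in every leukemic library. Against ctrl 2 of 3 rose in late cells, 2 in early ch+ and 1 in early ch- cells, and 0 differed between early ch+ and early ch- (limma; 0 at an unadjusted p under 0.05). Of all tested genes 10.2%, 3.41% and 1.13% were called higher in these comparisons with ctrl. Rgs16 rose by 2.24 ± 0.35 in late cells (limma, adjusted p = 2.17e-05) and by 1.17 ± 0.35 in early ch+ cells (adjusted p = 0.0554), and Rgs2 by 1.02 ± 0.31 (adjusted p = 0.0191) and 1.04 ± 0.31 (adjusted p = 0.0504), while Rgs3, the most abundant, was at 0.29 and 0.34 (adjusted p = 0.146 and 0.173). None of the 3 was lower in early ch+ cells at either threshold, unlike Rgs5 and Rgs4.

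Mcam encodes CD146, an adhesion molecule of the immunoglobulin superfamily on mural and endothelial cells (ENSMUSG00000032135, forward strand, chr9:44134469-44142727). It read 9.09, 9.49 and 8.88 in ctrl, 8.59, 9.46 and 8.43 in HL60 early ch-, 9.61, 8.94 and 7.89 in ML1 early ch-, 7.25, 8.21 and 7.22 in HL60 early ch+ and 7.17, 7.44 and 5.68 in ML1 early ch+ cells. All early ch+ libraries lay below all ctrl libraries, but HL60 early ch+ replicate 524 at 8.21 lay above ML1 early ch- replicate 546 at 7.89. Late values had a median of 8.63 and did not overlap between the lines. In HL60 they ran from 8.15 to 8.57, below every ctrl library and overlapping early ch+ at the low end. In ML1 they ran from 8.70 to 9.20 and overlapped ctrl. Mcam fell by 1.99 in early ch+ cells against ctrl (SE 0.36, 3.97-fold lower; limma, adjusted p = 0.000733) and by 1.66 against early ch- cells (SE 0.30, adjusted p = 0.000358). Late cells were higher than early ch+ cells by 1.52 ± 0.30 (limma, adjusted p = 0.000317), which was 0.85 with HL60 libraries alone, and the adjusted p ran from 1.59e-06 to 0.0795 over all alternatives. Against ctrl late cells stood at -0.47 (CI -1.21 to 0.27; limma, adjusted p = 0.448), or 0.23 after rescaling and -0.30 without ctrl replicate 374. By line the late difference was -0.74 in HL60 (limma, adjusted p = 0.271) and -0.19 in ML1 (adjusted p = 0.809), and neither was called. HL60 late minus ML1 late was -0.55 (limma, adjusted p = 0.742), which was not called. Early ch- cells stood at -0.33 against ctrl (CI -1.07 to 0.41; limma, adjusted p = 0.777), or -0.14 without ML1 early ch- replicate 546. Early ch+ minus early ch- was -2.05 in ML1 (limma, adjusted p = 0.00114) and -1.27 in HL60 (adjusted p = 0.0759), and the interaction between line and label was 0.78 (CI -0.32 to 1.89, adjusted p = 0.858). The HL60 call was lost without early ch+ replicates 523 (-1.11) or 525 (-1.10) or early ch- replicates 527 (-1.39) or 528 (-0.95), and also without the filter, after rescaling, without the trend and with robust moderation, with an adjusted p between 0.000687 and 0.391 over all alternatives.

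Cspg4 encodes the NG2 proteoglycan, a chondroitin sulfate carrier of the pericyte surface that binds growth factors and matrix (ENSMUSG00000032911, forward strand, chr9:56865033-56899870). It read 10.40, 10.41 and 10.11 in ctrl, 8.63, 8.72 and 8.75 in HL60 late and 8.61, 7.16 and 8.18 in ML1 late cells. Every late library lay below every other library, and ML1 late replicate 582 lay furthest down. Early ch- values were 9.64, 10.16 and 10.51 (lowest, median and highest) and early ch+ values 9.57, 9.72 and 9.89, so that early ch+ lay below ctrl without overlap but overlapped early ch-. Cspg4 fell by 1.97 in late cells against ctrl (SE 0.24, 3.91-fold lower; limma, adjusted p = 5.64e-07) and by 1.38 against early ch+ cells (SE 0.19, adjusted p = 3.68e-06). The late difference from ctrl was -1.61 in HL60 and -2.33 in ML1, and -1.73 for the pooled lines without ML1 late replicate 582. HL60 late minus ML1 late was 0.72 (CI 0.23 to 1.21; limma, adjusted p = 0.121), which was not called. The early ch+ difference from ctrl was -0.59 (CI -1.08 to -0.10; limma, adjusted p = 0.19), and it was called, at the same value, without ML1 late replicate 582, without all 3 ML1 late libraries, with the compared groups alone and in the 7-group model with lines averaged, and at -0.65 with HL60 alone, with an adjusted p between 0.0231 and 0.374 over all alternatives. Early ch- cells stood at -0.22 against ctrl (CI -0.71 to 0.26, adjusted p = 0.774).

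Aoc3 encodes vascular adhesion protein, a copper-containing amine oxidase on the surface of mural cells and adipocytes (ENSMUSG00000019326, forward strand, chr11:101330605-101341938). It read 10.28, 11.01 and 9.61 in ctrl, 9.93, 10.48 and 9.61 in HL60 early ch-, 10.00, 9.74 and 9.63 in ML1 early ch-, 7.49, 8.23 and 8.33 in HL60 early ch+ and 8.29, 8.01 and 7.45 in ML1 early ch+ cells. Late values ran from 9.65 to 10.07 in HL60 and from 9.13 to 9.68 in ML1, with a median of 9.66 over both. Early ch+ libraries lay below every other library in both lines, whereas early ch-, late and ctrl values overlapped. Aoc3 fell by 2.33 in early ch+ cells against ctrl (SE 0.25, 5.03-fold lower; limma, adjusted p = 3.85e-07) and by 1.93 against early ch- cells (SE 0.20, 3.81-fold lower, adjusted p = 1.08e-07), the lowest of the 9 genes in both comparisons with the lines pooled, while in ML1 alone Mcam was lower. The latter was -1.99 in HL60 (limma, adjusted p = 3e-05) and -1.87 in ML1 (adjusted p = 8.22e-05), and late cells were higher than early ch+ cells by 1.67 ± 0.20 (adjusted p = 3.71e-07). Early ch- cells stood at -0.40 against ctrl (CI -0.91 to 0.11, adjusted p = 0.563). In late cells Aoc3 was at -0.66 ± 0.25 against ctrl (limma, adjusted p = 0.0681), or 0.03 after rescaling, and the value was -1.01 without ctrl replicate 375. That call was lost without ctrl replicates 373 (-0.67) or 374 (-0.31), without ML1 late replicate 582 (-0.56), without the 3 ML1 late libraries (-0.50) and with quantile normalization (-0.61), and, at the same value, without the filter, without the trend and at an adjusted p under 0.05, and the adjusted p ran from 0.00885 to 0.926 over all alternatives. By line it was -0.50 in HL60 (limma, adjusted p = 0.328) and -0.83 in ML1 (adjusted p = 0.0384), the latter lost without ctrl replicate 374 (-0.47) or ML1 late replicate 582 (-0.66), without the filter, after rescaling and without the trend. HL60 late minus ML1 late was 0.33 (limma, adjusted p = 0.839), which was not called. Aoc2, the neighbouring paralog, was below the filter with a mean of 2.04, and Aoc1 was absent from the table, so 0 of 2 related oxidases could be tested.

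Abcc9 encodes SUR2, the sulfonylurea receptor subunit of the ATP-sensitive potassium channel of mural cells, and lies on the reverse strand beside Kcnj8, the gene of the pore subunit (ENSMUSG00000030249, chr6:142587862-142702315). It read 9.72, 9.65 and 10.06 in ctrl, 11.27, 11.26 and 11.08 in HL60 late and 11.20, 11.20 and 11.13 in ML1 late cells. The late libraries lay above all others and close together, with an SD of 0.07, the smallest of any member in any of the 4 groups. Early ch- values ran from 9.44 to 10.07 with a median of 9.84, and early ch+ values were 9.99, 9.83 and 10.32 in HL60 and 8.85, 9.36 and 9.75 in ML1, so that the lines did not overlap. Abcc9 rose in late cells by 1.38 ± 0.20 against ctrl (2.60-fold; limma, adjusted p = 9.69e-06) and by 1.51 ± 0.17 against early ch+ cells (adjusted p = 6.47e-08), with 1.39 in HL60 and 1.36 in ML1 against ctrl. The early ch+ value stood at -0.13 against ctrl (CI -0.54 to 0.29; limma, adjusted p = 0.811), with 0.23 in HL60 and -0.49 in ML1. HL60 minus ML1 in early ch+ cells was 0.72 (CI 0.33 to 1.12; limma, adjusted p = 0.328), which was not called. Early ch- cells stood at 0.03 against ctrl (CI -0.38 to 0.45, adjusted p = 0.971). Of the other channel subunits 1 of 3 was tested, with Abcc8 and Kcnj11 below the filter at means of 1.78 and 0.94. Kcnj8 was higher in late than in early ch+ cells by 0.93 ± 0.34 (limma, adjusted p = 0.0613) and stood at 0.67 against ctrl (adjusted p = 0.321), with values from 5.76 to 6.92 in ctrl and from 5.97 to 7.30 in late cells, and after rescaling it was called higher in late cells against ctrl as well. In that rescaled comparison 7786 of the 12976 tested genes were called higher.

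Des encodes desmin, the intermediate filament protein of muscle and mural cells (ENSMUSG00000026208, forward strand, chr1:75360329-75368579), and passed the test in 0 of the 5 comparisons of the groups (limma; 0 at an unadjusted p under 0.05 in the comparisons with ctrl). It read 8.39, 9.22 and 7.58 in ctrl, a wider spread than in any other group. Its lowest, median and highest values were 7.77, 8.02 and 8.37 in early ch-, 7.53, 7.84 and 8.52 in early ch+ and 7.66, 8.41 and 8.82 in late cells. All groups overlapped, and the leukemic libraries lay inside the ctrl range apart from ML1 early ch+ replicate 538 at 7.53. In late cells the lines did not overlap, at 7.66 to 8.39 in HL60 and 8.43 to 8.82 in ML1. HL60 late minus ML1 late was -0.55 (limma, adjusted p = 0.571), which was not called. Against ctrl the differences were -0.05 in late (CI -0.61 to 0.50; limma, adjusted p = 0.937), -0.50 in early ch+ (CI -1.06 to 0.05, adjusted p = 0.361) and -0.36 in early ch- cells (CI -0.92 to 0.19, adjusted p = 0.65). The late value turned to 0.36 without ctrl replicate 374, to 0.09 without HL60 late replicate 399 and to 0.64 after rescaling, where it was called higher. In that rescaled comparison 7786 of the 12976 tested genes were called higher, and the median over all of them was 0.71. The early ch+ value was -0.91 and called without ctrl replicate 375 but -0.09 without ctrl replicate 374, with an adjusted p between 0.0682 and 0.919 over all alternatives. Late minus early ch+ was 0.45 (limma, adjusted p = 0.195), and was called without HL60 late replicate 399 (0.59) or ML1 early ch+ replicate 539 (0.57) and after rescaling (1.07), with an adjusted p between 0.000561 and 0.833 over all alternatives. The rescaled fit called 65.1% of all tested genes higher in that comparison, with a median of 0.63 over all of them. The filament partners of desmin were tested for all 6 genes of the list: 2 were lower in late cells than in ctrl, the chaperone Cryab at -1.80 ± 0.26 (limma, adjusted p = 9.67e-06) and the linker Plec at -0.94 ± 0.15 (adjusted p = 2.68e-05), while after rescaling 3 were higher and 1 lower. Of all tested genes 11.4% were called lower in late cells than in ctrl, and 3.58% higher in early ch+ than in early ch- cells. In early ch+ cells 0 of the 6 filament partners were called against ctrl (limma; 1 higher at an unadjusted p under 0.05) and 2 were higher than in early ch- cells, Vim, the most abundant, by 0.66 ± 0.13 (adjusted p = 0.00135) and Plec by 0.60 ± 0.12 (adjusted p = 0.00193). Their summed level ran from 12.97 to 13.72 in late, from 13.46 to 13.90 in early ch+, from 12.99 to 13.19 in early ch- and from 13.18 to 13.52 in ctrl cells.

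Among themselves the members fell into patterns that crossed their roles. Over the 21 libraries, which share their 4 groups and so are not independent points, Mcam and Aoc3 had a Pearson's r of 0.87, Mcam and Rgs4 of 0.80 and Aoc3 and Rgs4 of 0.76. Pdgfrb had r = 0.86 with Abcc9, 0.85 with Ednra and -0.92 with Cspg4. With the means of the 7 groups, lines apart, taken out, Mcam kept r = 0.81 with Rgs4 and 0.66 with Aoc3 and had -0.77 with Abcc9, whereas Pdgfrb had 0.09 with Abcc9, 0.27 with Ednra and -0.04 with Cspg4. For the neighbours Rgs5 and Rgs4 r was 0.25 over the libraries and 0.59 with these means taken out. The positions do not group the genes further: apart from Rgs5 and Rgs4, which are neighbours, and Mcam and Cspg4, which lie far apart on chromosome 9, they lie on different chromosomes or, for Des, elsewhere on chromosome 1. Annotated genes overlapped 5 of them on the opposite strand, Gm10687 at Mcam, Gm28156 at Aoc3, 5330439B14Rik at Abcc9, Gm15179 at Des and 4933431K23Rik at Ednra, and all 5 were below the filter, with group means from 0.12 to 2.10.

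The genes most like each member were the 3 genes outside the 9 with the highest Pearson's r over the same 21 libraries, given with Spearman's rho as a description. Pdgfrb was nearest to Itga1 (r = 0.977, rho = 0.834), an integrin of collagen and laminin, then Nid1 and Igfbp7, and Ednra to Col8a1 (r = 0.896, rho = 0.797), then Tead1 and Rbms3. Rgs5 was nearest to Syt8 (r = 0.894, rho = 0.839), then Dmd and Olfr78, and Rgs4 to Notch3 (r = 0.922, rho = 0.939), a Notch receptor of mural cells, then Enah and Mgp. Mcam was nearest to Pde3a (r = 0.864, rho = 0.761), then Gucy1a1 and Map3k7cl, and Aoc3 to Gucy1a1 (r = 0.946, rho = 0.825), a subunit of the nitric oxide receptor, then Casq2 and Myl9. Cspg4 was nearest to Lpar3 (r = 0.958, rho = 0.890), then Col13a1 and Ptprs, Abcc9 to Tnfrsf21 (r = 0.924, rho = 0.816), then Igsf3 and Mmp13, and Des to Otud6b (r = 0.743, rho = 0.653), then Lyar and Cavin1. Gucy1a1 was the one gene on more than 1 of these short lists.

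Other pericyte and mural markers, a list of 22 with 20 tested, held genes called in both directions in late cells and more called lower than higher in early ch+ cells. Higd1b and Cox4i2 were below the filter. Early ch+ cells had 1 higher and 6 lower than ctrl, and 1 higher and 7 lower than early ch- cells, while early ch- cells had 0 called against ctrl (limma; 1 higher and 3 lower at an unadjusted p under 0.05). Late cells had 6 higher and 3 lower than ctrl, which became 12 and 1 after rescaling, where 7786 of the 12976 tested genes were called higher. On the deposited scale 3.41% of all tested genes were higher and 2.75% lower in early ch+ cells than in ctrl. Against early ch- cells the shares were 3.58% and 2.68%. For early ch- against ctrl they were 1.13% and 0.786%, and for late against ctrl 10.2% and 11.4%. Heyl, a Notch target, rose in late cells by 2.40 ± 0.17 (limma, adjusted p = 1.56e-10) and Steap4 by 2.01 ± 0.17 (adjusted p = 3.2e-09), while Tbx2 stood at -1.96 ± 0.32 (adjusted p = 4.64e-05). The connexin gene Gja4 fell by 2.24 in early ch+ cells against ctrl (SE 0.48; limma, adjusted p = 0.00404) and Gucy1b1 by 1.76 (SE 0.37, adjusted p = 0.00395), and Cd248 rose by 1.53 ± 0.21 over early ch- cells (adjusted p = 8.68e-06). Notch3, the most abundant, read 11.26 to 11.83 in ctrl, 9.88 to 10.76 in early ch+ and 12.04 to 12.69 in late cells, so that it was 2.00-fold lower in early ch+ (limma, adjusted p = 0.000824) and 1.84-fold higher in late cells (adjusted p = 0.000755) than in ctrl. The summed level of the list was 12.96, 13.01 and 13.34 in ctrl, 12.76 to 13.12 in early ch-, 12.51 to 12.67 in early ch+ and 13.74 to 14.07 in late cells.

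The smooth muscle contractile genes, with which mural markers are often expressed together, were tested for all 14 genes. Against ctrl 10 fell and 0 rose in early ch+ cells (limma; 0 higher at an unadjusted p under 0.05), and against early ch- cells also 10 fell, beside 2.75% and 2.68% of all tested genes called lower. In late cells 7 were lower and 1 higher than ctrl, beside 11.4% and 10.2%. After rescaling these counts were 3 and 3, beside 3.98% of all tested genes called lower and 7786 of the 12976 called higher. Against early ch+ cells 9 were higher in late cells, beside 8.79%, or 14 after rescaling, where 65.1% of all tested genes were called higher. Against ctrl, in early ch+ cells, Myh11 fell by 2.97 (SE 0.28; limma, adjusted p = 3.8e-08), Tagln by 2.79 (SE 0.34, adjusted p = 3.79e-06) and Acta2 by 2.67 (SE 0.28, adjusted p = 2.28e-07). Their summed level, with Tpm1 the most abundant over all libraries though not in late cells, was 14.74, 15.15 and 15.60 in ctrl, 14.53 to 15.06 in early ch-, 13.95 to 14.33 in early ch+ and 14.53 to 14.93 in late cells, so it was lowest in the group where Aoc3, Mcam and Rgs4 were lowest, and its part in their fall was not tested.

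Markers of other cell types that the sort could hold moved with the groups as well, and their part in the member results was not tested. Against ctrl 10.2% of all tested genes were called higher and 11.4% lower in late cells. These shares were 3.41% and 2.75% in early ch+ and 1.13% and 0.786% in early ch- cells. Between early ch+ and early ch- they were 3.58% and 2.68%, and between late and early ch+ 8.79% and 10.9%. They stand beside the counts of all cell type markers below. Markers of Cxcl12-abundant reticular (CAR) cells, all 10 tested and Cxcl12 the most abundant, were higher for 8 and lower for 1 in late cells against ctrl (10 and 0 after rescaling), higher for 7 in early ch+ and for 1 in early ch- cells. Their summed level was 15.45, 15.66 and 16.09 in ctrl, 15.53 to 16.47 in early ch-, 16.21 to 16.81 in early ch+ and 16.71 to 17.02 in late cells, with Lepr rising by 1.97 ± 0.19 in late cells (limma, adjusted p = 1.22e-08). Osteoblast markers, all 10 tested, were lower for 8 and higher for 1 in late cells, and 0 were called in early ch+ cells against ctrl (limma; 1 lower at an unadjusted p under 0.05). Their summed level, led by Col1a1, was 20.26, 20.41 and 20.71 in ctrl, 19.98 to 20.47 in early ch-, 19.84 to 20.08 in early ch+ and 16.36 to 19.01 in late cells, and Bglap fell by 3.97 in late cells (SE 0.56; limma, adjusted p = 4.9e-06). Chondrocyte markers were lower for all 13 tested (Matn1 was below the filter) in late cells and for 11 in early ch+ cells against both ctrl and early ch-, and for 0 in early ch- cells (limma; 1 at an unadjusted p under 0.05). Their summed level, led over all libraries by Col2a1 though not in early ch+ cells, was 17.04, 17.34 and 17.85 in ctrl, 16.46 to 17.17 in early ch-, 15.47 to 16.20 in early ch+ and 12.51 to 15.06 in late cells. Gene by gene the late and early ch+ levels were closer, with a median difference from ctrl of -3.60 in late and -3.95 in early ch+ cells, and between late and early ch+ cells 3 of 13 were called lower and 0 higher (limma; 1 higher at an unadjusted p under 0.05), or 2 lower and 6 higher after rescaling.

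Blood and red cell markers were higher in both early groups than in ctrl, although blood cells had been depleted and CD45 and Ter119 stained before the sort. Of the blood markers 8 of 11 were tested, with Cd52, Coro1a and Laptm5 below the filter, and 8 rose in early ch+ and 7 in early ch- cells against ctrl, while 0 differed between the 2 early groups (limma; 0 at an unadjusted p under 0.05). Their summed level, with Lyz2 the most abundant, was 8.11, 8.92 and 9.30 in ctrl, 10.64 to 11.68 in early ch-, 10.25 to 11.50 in early ch+ and 6.93 to 8.08 in late cells, where 3 were lower than ctrl (0 after rescaling). Red cell markers, all 9 tested, rose for 8 in early ch+ and 7 in early ch- cells, with 0 called between the early groups (limma; 0 at an unadjusted p under 0.05). Their summed level, led by Hbb-bs, was 8.43, 8.83 and 9.48 in ctrl, 12.32 to 13.33 in early ch-, 12.10 to 13.66 in early ch+ and 6.72 to 7.28 in late cells, where 4 were lower than ctrl (2 higher and 4 lower after rescaling). S100a9 rose by 4.80 ± 0.36 (limma, adjusted p = 2.75e-10) and Hbb-bs by 4.22 ± 0.24 (adjusted p = 1.28e-12) in early ch+ cells, and by 4.68 ± 0.36 and 4.12 ± 0.24 in early ch- cells. The part of these cells in the member results was not tested. The filter used the mean over all libraries, so a gene low in ctrl and late cells could pass through the early groups alone. Ptprc passed in this way, with means of 2.56 in ctrl and 2.43 in late cells. Counts of rises among blood, red cell and skeletal muscle markers may therefore be partly set by the filter.

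Skeletal muscle markers, 8 of 12 tested with Myh1, Myh2, Myh4 and Tnnc2 below the filter, rose for 7 in early ch+ and 1 in early ch- cells against ctrl, and were lower for 2 in late cells (0 after rescaling). Their summed level, led over all libraries by Ttn though not in ctrl or late cells, was 8.08, 8.10 and 8.33 in ctrl, 8.51 to 9.92 in early ch-, 8.78 to 10.05 in early ch+ and 6.84 to 7.71 in late cells. Endothelial markers, 8 of 10 tested with Tie1 and Cldn5 below the filter, had 1 higher and 1 lower in late cells (2 and 0 after rescaling) and 1 lower in early ch+ cells, which was Esam at -1.26 ± 0.38 (limma, adjusted p = 0.0594). Their summed level, led by Eng, overlapped in all groups, at 9.25 to 9.52 in ctrl, 9.16 to 9.74 in early ch-, 9.15 to 9.96 in early ch+ and 9.32 to 9.85 in late cells. Schwann cell markers, 6 of 7 tested with Foxd3 below the filter, were lower for 4 in early ch+ cells against ctrl and lower for 5 and higher for 1 against early ch- cells, and lower for 2 in late cells (1 higher and 0 lower after rescaling). Sox10, the factor that defines this lineage, fell by 2.20 in early ch+ against early ch- cells (SE 0.35; limma, adjusted p = 7.08e-05) to values from 3.07 to 3.33, and the sum of the list, led by S100b, ran from 8.74 to 8.95 in ctrl, 8.48 to 9.04 in early ch-, 7.95 to 8.95 in early ch+ and 7.87 to 8.72 in late cells. Kcnj8 and Pdgfra each stand on 2 of the lists.

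**Figure D3:**
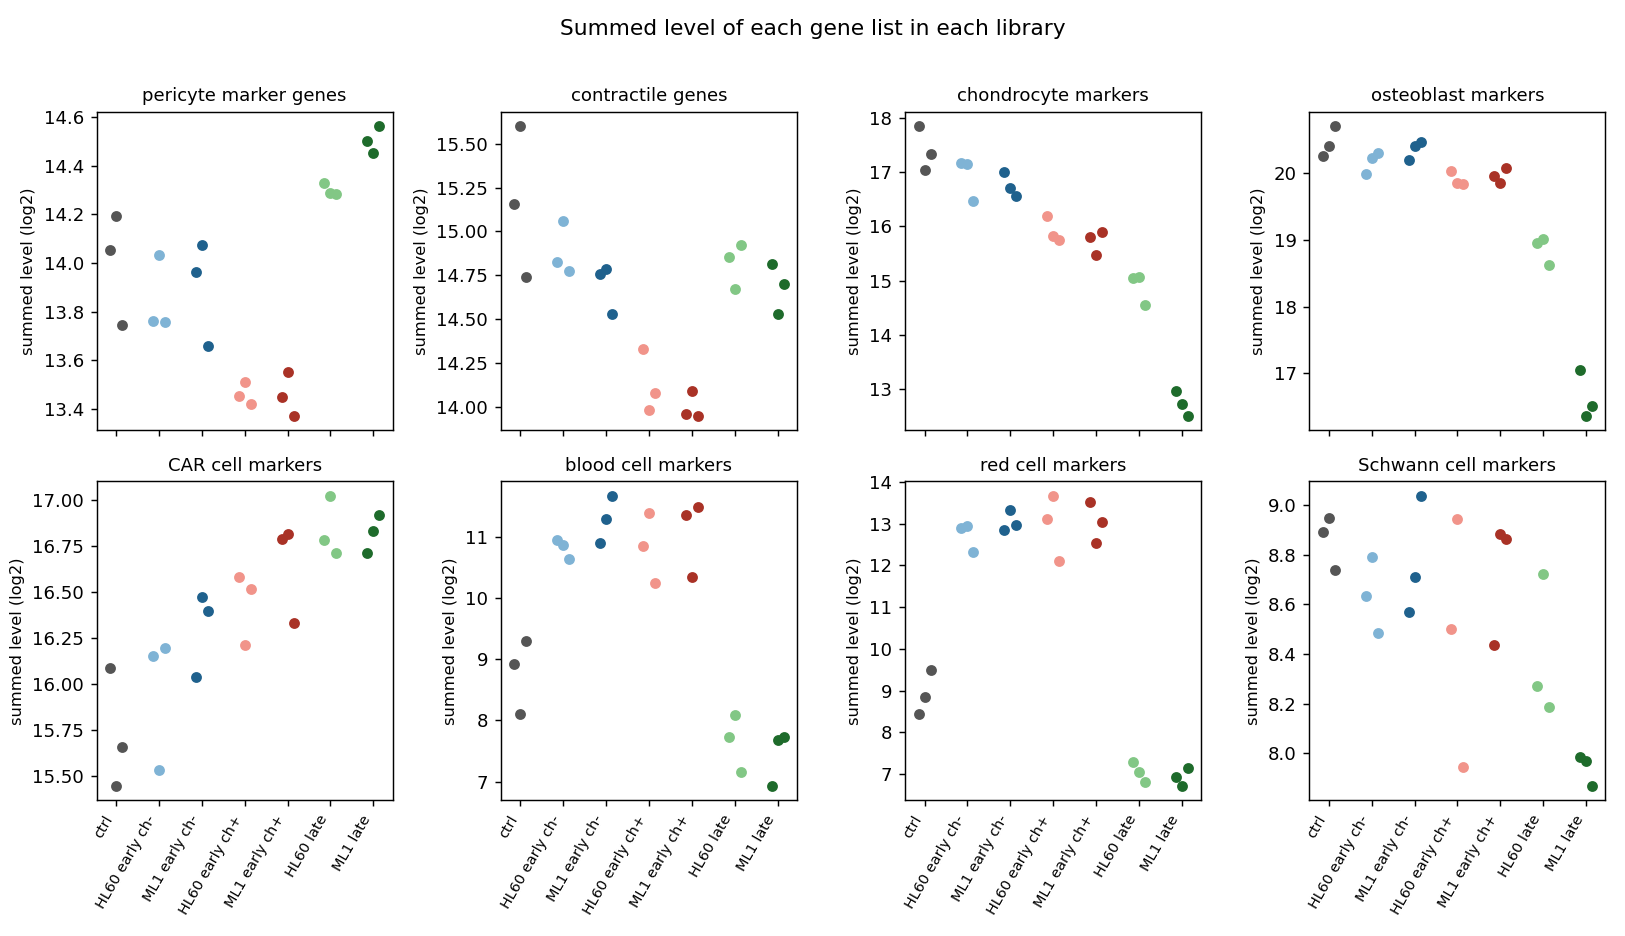
Summed level of each marker list in every library, as the log2 of the sum of the unlogged values on the vertical axis, for ctrl, early ch-, early ch+ and late cells. The sum of the red cell markers runs from 12.10 to 13.66 in the early ch+ libraries and from 6.72 to 7.28 in the late libraries, and the sum of the osteoblast markers from 16.36 to 19.01 in late cells.

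The scale of the late values depends on how libraries are brought to a common size. The log2 of the library total, the sum of the unlogged deposited values over all genes, was 23.50, 23.61 and 23.76 in ctrl, 23.55 to 23.81 in early ch-, 23.42 to 23.59 in early ch+ and 22.79 to 23.11 in late cells. These values were already normalized, so the total is not a sequencing depth, and the most abundant genes weigh most in it. The osteoblast sum, 20.26 to 20.71 in ctrl and 16.36 to 19.01 in late cells, is a part of it, and its share in the late shift was not tested. Rescaling every library to the mean total brought the median difference of all genes to 0.71 in late against ctrl, 0.63 in late against early ch+ and 0.13 in early ch+ against early ch- cells. The share of called genes that were higher went from 47.3% to 93.8% in late cells against ctrl, from 44.6% to 93.5% in late against early ch+, from 55.4% to 66.7% in early ch+ against ctrl, from 59.0% to 41.9% in early ch- against ctrl and from 57.1% to 78.6% in early ch+ against early ch- cells. On the rescaled values Pdgfrb stood at 2.69, Ednra at 2.20, Abcc9 at 2.07, Rgs4 at 1.47 and Cspg4 at -1.28 in late cells against ctrl. Relative to the shifted median they stood at 1.98, 1.49, 1.36, 0.76 and -1.99, and Rgs5 and Aoc3 at -0.68 each, Mcam at -0.48 and Des at -0.07. After rescaling 5 members were higher in late cells against ctrl, Des being the fifth, beside 7786 of the 12976 tested genes, and 1 was lower, beside 3.98%, with a member median of 0.64. Late against early ch+ cells had 8 higher, beside 65.1% of all tested genes, and 1 lower, beside 4.53%. Early ch+ cells had 0 higher and 4 lower than ctrl, beside 4.17% and 2.08%, and 1 higher and 4 lower than early ch- cells, beside 6.48% and 1.76%.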

How the data were processed

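The deposited table holds 1 column for each of 21 libraries and 26852 Ensembl genes. The authors aligned reads to mm10 with STAR 2.5.1b, counted genes with RSEM 1.2.29 and normalized and regularized the counts in DESeq2, for which the labels name version 1.10.1 and the study's methods a later one, and the deposited values are on a log2 scale. The study's methods name a log10 transformation, but the values run from -2.33 to 22.44, and were read as log2. The depth of each library is not known, since the study gives only a typical yield, and edgeR or DESeq2 could not be run without counts.

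Genes with a mean of at least 3.32, the log2 of 10, over all libraries were tested (12976 genes) with limma 3.58.1 in R 4.3.3 (mean-variance trend, moderated test, two-sided, Benjamini-Hochberg over all tested genes, threshold 0.1). A model with 4 groups gave 5 comparisons, and a model with 7 groups, with the lines apart, gave 12. Members and lists were chosen with earlier results of these data known. All 9 members were named, and from each list up to 4 genes, those with the largest called differences and the most abundant by the mean of the unlogged values over all libraries. The lists were other mural markers, contractile genes, PDGF, endothelin, R4 regulators, channel subunits, amine oxidases, filament partners, and CAR cell, osteoblast, chondrocyte, skeletal muscle, endothelial, Schwann cell, blood and red cell markers. Gene positions are those of GRCm38. The study states strand-specific reads and gives the forward-probability setting with which RSEM counted them. The strand handling of the library kit itself was not settled, so reads of genes on opposite strands may be shared.

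Alternatives were no filter, a filter at 5, quantile normalization, rescaling to the mean library total, no trend, robust moderation, sample weights, the compared groups alone, the 7-group model with lines averaged, each line alone with ctrl, an adjusted p under 0.05, an absolute log2 difference of at least 1, and leaving out each library. Leaving out the 3 ML1 late libraries, and a replicate block for early ch+ and early ch-, were added after the data were seen.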

Additional observations from a re-analysis of the deposited data

Results flagged for a closer look

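Of 27 tests for a library far from the rest of its group of 6, 3 found one, and chance gives about 1 in 20. In late cells, Cspg4 was lowest in ML1 late replicate 582 at 7.16, with the next library at 8.18. In early ch- cells, Rgs4 was lowest in ML1 replicate 546 at 8.83, with the next at 9.64, and Ednra was lowest in ML1 replicate 543 at 9.04, with the next at 9.73.

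Of 36 tests of a difference between HL60 and ML1, 1 passed the threshold. Pdgfrb was lower in HL60 late than in ML1 late cells, with a log2 difference of -0.58 (limma, adjusted p = 0.0239).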

How the results depend on the processing

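Results were compared with those of the alternatives, where a single gene's result was the same, weaker (its call was lost), stronger (a call was gained) or reversed in direction, and a count moved when it changed by more than 1.5-fold. Of 937 single-gene results under the alternatives that keep every library or drop whole groups, 869 were the same, 45 were weaker, 7 were stronger and 16 were reversed, and 11 of 193 counts moved. With 1 library left out, 1517 of 1554 single-gene results were the same, 20 were weaker, 5 were stronger and 12 were reversed, and 6 of 357 counts moved.

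The count of members called in late cells against ctrl, 7, became 4 when an absolute log2 difference of at least 1 was required, and so did the ML1 count. The HL60 count of early ch+ against early ch-, 4, became 2 without the filter, after rescaling, without the trend and at an adjusted p under 0.05, and ran from 2 to 4 with 1 library left out. The count between HL60 and ML1 in late cells, 1, became 0 without the filter, without the trend and at an absolute log2 difference of at least 1, and 2 with a filter at 5 and with sample weights, and ran from 0 to 2 with 1 library left out. With 1 library left out, the pooled counts ran from 6 to 7 in late, from 4 to 5 in early ch+ and from 0 to 0 in early ch- cells against ctrl, from 4 to 4 in early ch+ against early ch- and from 7 to 8 in late against early ch+ cells. No share of all genes is given for the settings in this paragraph. A change in a count here is therefore not shown to be particular to the members.

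Calls were also lost or gained at the same direction. The late call of Aoc3 against ctrl was lost without the filter, with quantile normalization, without the trend, with HL60 alone, without the ML1 late libraries and at an adjusted p under 0.05, and that of Rgs4 without the filter and without the ML1 late libraries. In ML1 late cells Aoc3 was lost without the filter, after rescaling and without the trend, and Rgs4 without the filter, and in HL60 late cells Rgs5 was lost after rescaling. In early ch+ cells against ctrl Mcam was lost in HL60 without the filter and Rgs5 in ML1 without the trend, while Cspg4 gained a call with the compared groups alone, with lines averaged, with HL60 alone and without the ML1 late libraries. In early ch+ against early ch- Rgs5 was lost in both lines, and Mcam in HL60, without the filter, after rescaling, without the trend and at an adjusted p under 0.05, and further Mcam in HL60 with robust moderation and Rgs5 in ML1 with sample weights. Between the lines in late cells Pdgfrb was lost without the filter and without the trend. Rescaling called Ednra higher in early ch+ than in early ch- cells (0.53) and Rgs5 (0.66) and Des (1.07) higher in late than in early ch+ cells, and also Des (0.64) higher in late cells than in ctrl, against its direction on the deposited scale. In these rescaled comparisons 6.48%, 65.1% and 60% of all tested genes were called higher, in that order. An absolute log2 difference of at least 1 removed Rgs5 from every comparison in which it was called, Aoc3 and Rgs4 from late against ctrl and Pdgfrb from the difference between the lines.

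Rescaling to the mean library total reversed the late difference from ctrl of Rgs5 (0.0282), Mcam (0.23), Aoc3 (0.0293) and Des (0.64), and of Rgs5 in ML1 alone (0.12). It also reversed the early ch- difference from ctrl of Abcc9 (-0.0429) and Ednra (-0.00053) and the difference of Des between early ch+ and early ch- (0.0131). With the HL60 libraries alone, Abcc9 turned to 0.23 in early ch+ against ctrl and to 0.13 against early ch-, and Pdgfrb to -0.00832 in early ch- against ctrl. With the ML1 libraries alone, Des turned to 0.22 in late against ctrl, Abcc9 to -0.0398 and Ednra to -0.0685 in early ch- against ctrl, Pdgfrb to -0.0616 in early ch+ against early ch-, and Rgs5 to -0.0381 in late against early ch+ cells.

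Leaving out 1 library reversed differences that were not called. Des ran from -0.46 to 0.36 in late and from -0.77 to 0.0494 in early ch- against ctrl, Abcc9 from -0.26 to 0.0385 in early ch+ and from -0.0493 to 0.16 in early ch- against ctrl and from -0.29 to 0.00689 in early ch+ against early ch-, Ednra from -0.13 to 0.40 in early ch- against ctrl, and Rgs5 from -1e-04 to 0.0838 in late against early ch+ cells. Without reversing, early ch- against ctrl ran from -0.75 to -0.05 for Aoc3, from -0.50 to -0.06 for Rgs4 and from -0.49 to -0.14 for Mcam. It also ran from -0.29 to -0.08 for Rgs5, from -0.32 to -0.13 for Cspg4 and from 0.10 to 0.27 for Pdgfrb. The cause was not tested.

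The numbers of early ch+ and early ch- libraries differ, and the labels do not state a pairing, but within a line they run in parallel. Matched in that order, with the replicate as a block, 4 members were called in early ch+ against early ch- with the lines pooled, 4 in HL60 and 4 in ML1, and the block changed no call. The deviations of matched libraries from their group means had correlations across genes of 0.00394, 0.0249 and 0.0463 in HL60 and of 0.00365, -0.0209 and 0.0194 in ML1, and not every library correlated best with its match, so the numbers were not taken as pairs.

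With 3 ctrl libraries, small differences are missed, and a value that is not called is not a value of 0. Mouse, sort day and sequencing day are not in the labels and could not be modelled. The depth of each library is unknown. The values are of RNA in sorted pools, so a change in the mix of cells and a change within cells look alike, and protein was not measured here.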
